A study of Mus musculus with 6 samples.

Results

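Interferon stimulated genes were compared between *Myh9*-deficient and control LSK cells, the fraction of mouse BM without lineage antigens but with Sca1 and c-Kit, in which the hematopoietic stem and progenitor cells lie. The set was the 55 genes, of 54532 in the deposited table, whose symbols stand in a given list of interferon stimulated genes: 12 sensors, 4 transcription factors, 8 regulators of the response, 21 effectors and 10 GTPases. The rule uses the symbol alone and no measured value. Each group had 3 libraries, 1 for each set of 100000 sorted cells, and the number of mice behind a set is not given in the sources used here, so p-values measure only the spread between these libraries. Control cells came from Myh9fl/fl mice with no cre. The *Myh9*-deficient cells came from littermates that were Myh9fl/fl and also carried Mx1-cre, a transgene in which the promoter of the interferon stimulated gene *Mx1* drives the Cre recombinase. All mice were C57BL/6, were 5 to 6 weeks old by the study's methods, and all of them, controls included, received poly I:C at 5 mg/kg, in 2 injections by the sample labels and in 3 by the methods. LSKs were sorted 4 days into the course, counted from its first injection. There was no group without poly I:C, so the data give the levels after treatment and not the induction, and effects of the transgene and of the loss of *Myh9* cannot be told apart.

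Poly I:C is a synthetic double-stranded RNA that cells read as a sign of viral infection, through the endosomal receptor TLR3 and the cytosolic sensors RIG-I and MDA5, and it makes many tissues release type I interferon. Interferon bound to its receptor activates the kinases JAK1 and TYK2, these phosphorylate STAT proteins, and STAT2 and IRF9 act in a complex that binds the interferon stimulated response element (ISRE) in promoters. Interferon gamma acts mainly at another element, the gamma activated site (GAS). In BM, interferon is known to bring quiescent stem cells into cycle and to raise Sca1, one of the antigens of the LSK sort.

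The letters through which these genes are known to answer interferon were looked for in their promoters, from 250 bases before to 50 bases after each RefSeq start (GRCm38.p6). Of the 55 genes, 42 had such a window. The core of the ISRE, searched on both strands as GAAANNGAA with overlaps allowed, was found in 26 of the 42 (61.9%) and in 2638 of all 27025 genes with a window (9.76%). At least 2 copies in 1 window were found for 14 of the 42 (33.3%) and for 0.736% of all genes. The core of the GAS, TTCNNNGAA, was found for 14 of the 42 (33.3%) and for 9.55% of all genes. The last 120 bases before the start are given below for 2 genes that were lower in *Myh9*-deficient LSKs (*Oas3* and *Gbp3*), 2 whose difference did not pass the test (*Isg15* and *Ifit1*) and 2 that were higher (*Lgals9* and *Ifitm1*), with every match to the ISRE core, on either strand, in capitals.
Oas3: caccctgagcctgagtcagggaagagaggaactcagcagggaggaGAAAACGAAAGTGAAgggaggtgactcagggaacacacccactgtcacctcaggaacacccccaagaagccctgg
Gbp3: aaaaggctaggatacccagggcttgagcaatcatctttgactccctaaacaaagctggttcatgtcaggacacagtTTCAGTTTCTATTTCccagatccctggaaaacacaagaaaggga
Isg15: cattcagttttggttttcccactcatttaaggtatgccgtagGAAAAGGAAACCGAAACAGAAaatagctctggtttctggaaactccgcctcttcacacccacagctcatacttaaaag
Ifit1: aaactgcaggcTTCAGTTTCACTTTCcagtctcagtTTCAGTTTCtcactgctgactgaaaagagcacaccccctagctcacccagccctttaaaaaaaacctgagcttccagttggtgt
Lgals9: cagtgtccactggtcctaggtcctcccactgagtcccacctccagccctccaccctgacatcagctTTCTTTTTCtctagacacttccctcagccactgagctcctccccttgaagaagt
Ifitm1: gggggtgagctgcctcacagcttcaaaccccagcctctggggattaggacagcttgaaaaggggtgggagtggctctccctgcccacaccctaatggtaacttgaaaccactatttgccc
The stretches lie at chr5:120777660-120777779 (Oas3, minus strand), chr3:142559924-142560043 (Gbp3, plus strand), chr4:156200819-156200938 (Isg15, minus strand), chr19:34640769-34640888 (Ifit1, plus strand), chr11:78984925-78985044 (Lgals9, minus strand) and chr7:140967956-140968075 (Ifitm1, plus strand). *Oas3* and *Gbp3* each carry 2 overlapping copies of the core, *Isg15* 3 overlapping copies and *Ifit1* 3 copies, of which 2 overlap. *Lgals9* carries 1 copy here, and the stretch of *Ifitm1*, which lies inside the gene as the deposited table bounds it, carries none. Over all windows, the core was found for 12 of 20 genes that were lower in *Myh9*-deficient LSKs, for 10 of 15 whose difference did not pass the test, for 1 of 3 that were higher and for 3 of 4 that were not tested. By role, it was found for 7 of 7 GTPases, 6 of 8 sensors, 9 of 18 effectors, 3 of 5 regulators and 1 of 4 transcription factors. A match of letters is a description and not a binding site that was measured.

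The 55 genes lie on 17 chromosomes, and 29 of them lie in 11 stretches that hold 2 or more with gaps of at most 1000000 bases. In mm10 coordinates, *Ifit2*, *Ifit3*, *Ifit3b* and *Ifit1* share chr19:34550694-34650009, *Gbp5*, *Gbp7*, *Gbp3* and *Gbp2* share chr3:142493978-142638008, and *Oas2*, *Oas3* and *Oas1a* share chr5:120730333-120907521. Neighbours did not always carry the same call. *Ifitm1*, *Ifitm3* and *Irf7*, within chr7:140967221-141266481, were called higher, not called and called lower in *Myh9*-deficient LSKs. All 3 *Oas* genes of the chromosome 5 stretch were called lower.

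The libraries held 17571544 to 19894562 reads on genes, recovered from the deposited FPKM (fragment counts corrected for gene length and for library size), and 3 reads on a gene of 1 kilobase equal 0.151 to 0.17 FPKM. The 11552 genes whose mean over the 6 libraries reached 1 FPKM were tested on log2(FPKM + 1) with limma, two-sided, and p-values were adjusted over all of them by the Benjamini-Hochberg method. On this scale the fold change of a gene with a low level is understated. Errors are SD over 3 libraries, or the standard error (SE) of a log2 fold change, which is *Myh9*-deficient over control throughout. An exact permutation test of 3 against 3 libraries cannot go below p = 0.1 for a single gene. *Myh9* itself measured 23, 22.6 and 22 FPKM in control and 18.4, 20 and 17.7 FPKM in *Myh9*-deficient libraries, a fall that passed the test (log2 fold change -0.26 ± 0.0487, SE, adjusted p = 0.00642, limma). With means of 22.5 and 18.7 FPKM, most of the *Myh9* signal remained in the libraries labelled *Myh9*-deficient. A total over the gene cannot show whether the floxed part was deleted, so this value does not establish the extent of deletion.

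Interferon stimulated genes were on the whole lower in *Myh9*-deficient than in control LSKs, by small amounts. Of the 55 genes, 50 were tested, none of which had a mean under 1 FPKM in either group. Of the 50, 27 (54.0%) fell and 3 (6.0%) rose with an adjusted p under 0.05, while 20.6% of all genes tested fell and 19.9% rose (40.5% in either direction). Their median log2 fold change was -0.21, against -0.01 over all genes tested. All libraries of the *Myh9*-deficient group were below all control libraries for 31 of the 50, against 28.5% of all genes tested, and above them for 4, against 25.5%. On the scale of FPKM + 1, 3 genes fell by more than 1.5-fold with an adjusted p under 0.05 (*Ifi204*, *Ifi27l2a* and *Gbp5*) and 0 rose. By this rule 2.45% of all genes tested fell and 3.24% rose. By the ratio of mean FPKM, *Ifi44* (0.55), *Oas3* (0.591) and *Trim30a* (0.662), all with an adjusted p under 0.05, also fell by more than 1.5-fold.

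**Figure D1:**
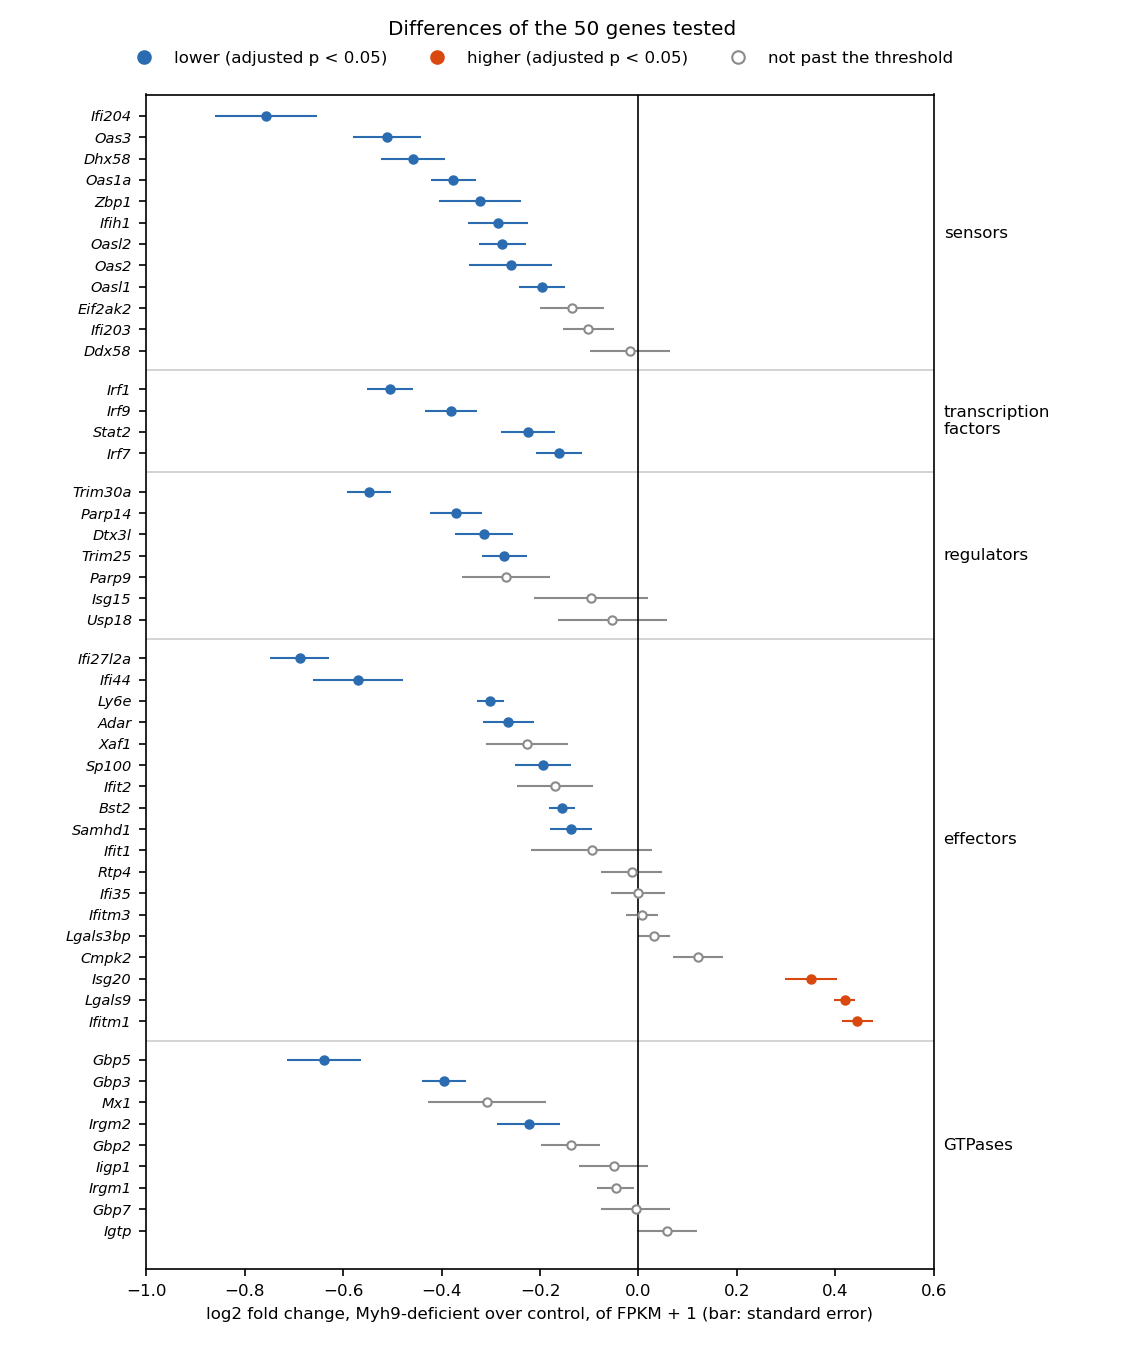
Log2 fold change of FPKM + 1, *Myh9*-deficient over control, for the 50 genes tested, ordered within each role, with bars for the SE (3 libraries a group). Blue points on the left are the 27 genes with an adjusted p under 0.05 that fell, the 3 orange points on the right are *Isg20*, *Lgals9* and *Ifitm1*, and open points are the 20 genes that did not pass.

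In control LSKs the levels of the 55 genes ran from 0.0975 FPKM for *Ifit3b* to 567 FPKM for *Ifitm3*. The 5 genes with the highest mean level were all effectors with products at membranes or outside the cell: *Ifitm3*, *Ly6e*, *Ifitm1*, *Bst2* and *Lgals9*, from 567 to 194 FPKM. *Ifitm3* had a higher control level than 99.0% of all genes tested. *Ifi27l2a* (119 FPKM) and *Lgals3bp* (106 FPKM) followed, and the sensor with the highest level was *Oas1a* at 34.1 FPKM. In the order of control levels, the libraries of 37 of the 54 pairs of neighbours overlapped, so the order is not resolved there, while *Ifitm3* and *Ly6e* each stood apart from the next gene. Some genes often used as interferon reporters were among the lowest, with *Mx1* at 1.9, *Ifit1* at 1.83 and *Rsad2* at 0.603 FPKM.

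**Figure D2:**
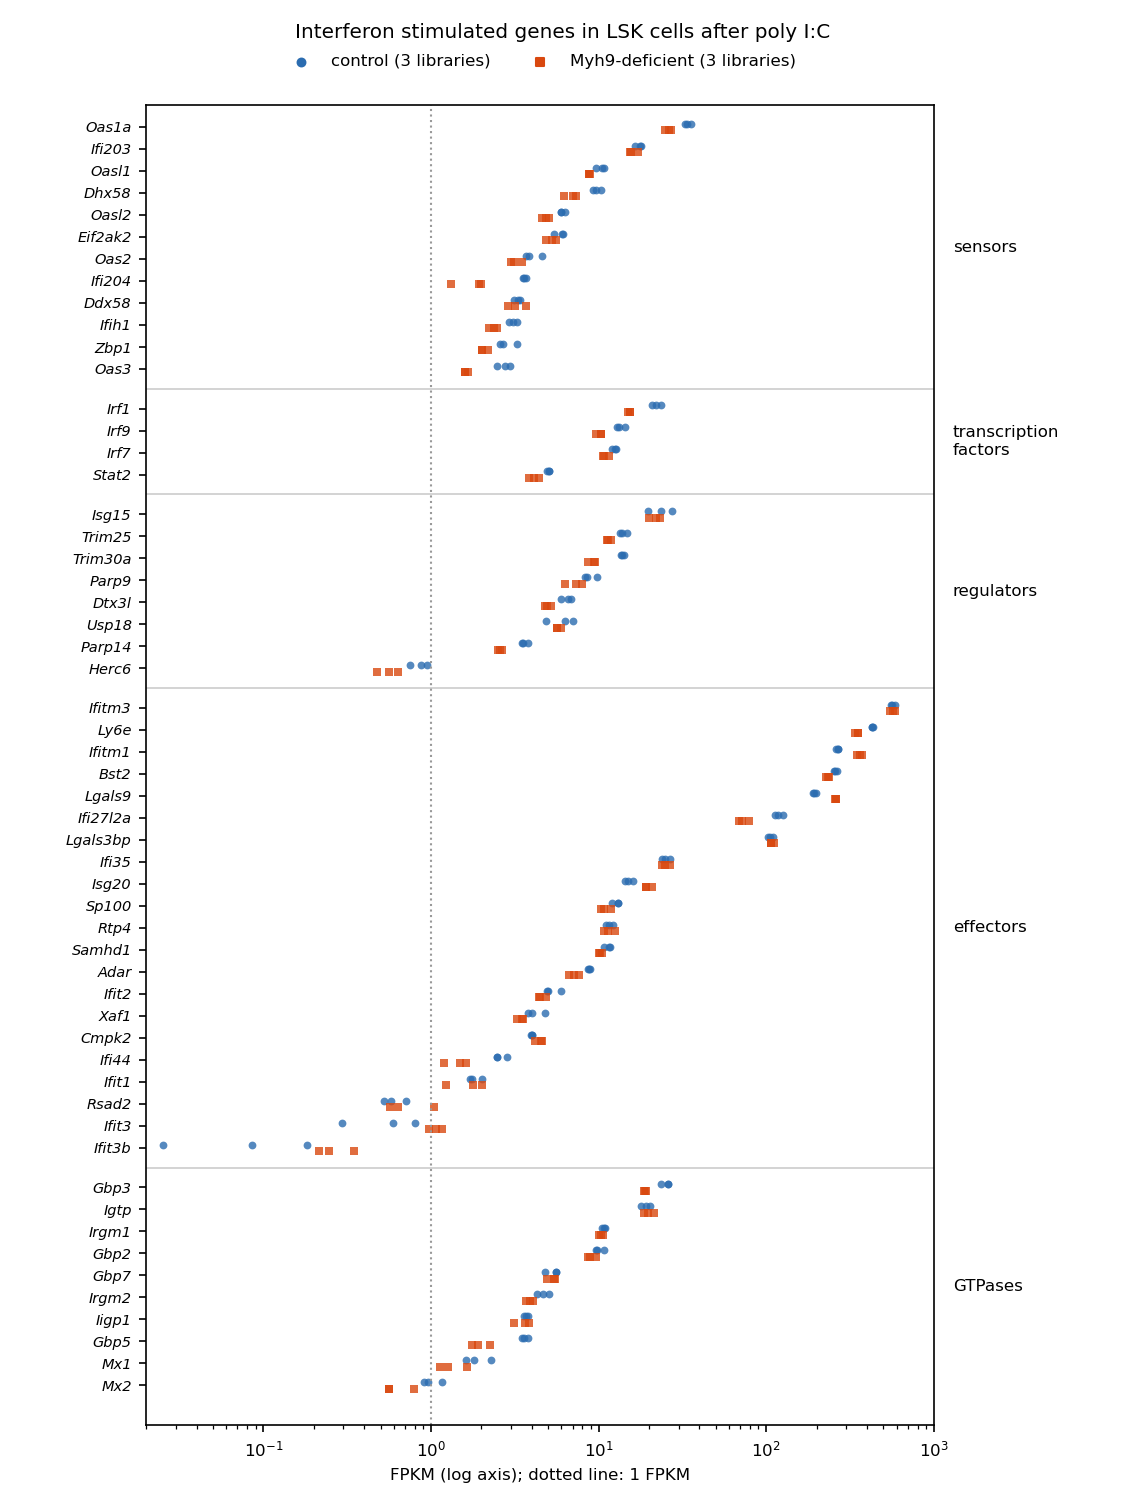
FPKM of the 55 genes in each of the 6 libraries on a log axis, grouped by role and ordered by control level, with circles for control and squares for *Myh9*-deficient libraries. Most levels lie between 1 and 30 FPKM, the highest effectors lie above 100 FPKM, and in most rows the squares lie to the left of the circles or among them.

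Sensors detect foreign or misplaced nucleic acid. They include the RIG-I-like helicases (*Ddx58*, *Ifih1* and *Dhx58*), the oligoadenylate synthetases, which make the activator of RNase L, the kinase PKR (*Eif2ak2*) and the DNA-binding PYHIN proteins. Of the 12 sensors, 9 fell and 0 rose, with a median log2 fold change of -0.28. Their summed level was 102 to 104 FPKM in control and 79.8 to 84.6 FPKM in *Myh9*-deficient libraries, ranges that did not overlap.

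*Ifi204*, a PYHIN gene, had the largest fall of all 50 genes tested. It measured 3.59, 3.71 and 3.56 FPKM in control and 1.98, 1.32 and 1.95 FPKM in *Myh9*-deficient libraries. The groups did not overlap, and the log2 fold change was -0.76 ± 0.104 (SE, adjusted p = 0.00185, limma). *Oas3*, whose product is activated by long double-stranded RNA, measured 2.76, 2.47 and 2.96 FPKM in control and 1.65, 1.59 and 1.6 FPKM in *Myh9*-deficient libraries. Its mean fell by 40.9% and the groups stood apart (log2 fold change -0.51 ± 0.0698, SE, adjusted p = 0.0018, limma). *Dhx58*, which encodes LGP2, a helicase that modulates RIG-I and MDA5, was at 9.67, 9.31 and 10.3 FPKM in control and at 6.22, 7.31 and 7 FPKM in *Myh9*-deficient libraries. This fall was again larger than the spread (log2 fold change -0.46 ± 0.0651, SE, adjusted p = 0.00209, limma).

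*Oas1a* was the most abundant sensor, at 32.8, 35.8 and 33.8 FPKM in control and 27.1, 24.8 and 26.4 FPKM in *Myh9*-deficient libraries. It fell without overlap between the groups (log2 fold change -0.38 ± 0.0467, SE, adjusted p = 0.00122, limma), but 57.6% of the 50-base windows of its transcripts are also in *Oas1g* or *Oas1b*, so its reads may belong in part to these copies. *Oasl1*, which restrains the translation of *Irf7*, was at 10.4, 10.7 and 9.61 FPKM in control and at 8.8, 8.92 and 8.72 FPKM in *Myh9*-deficient libraries (log2 fold change -0.20, adjusted p = 0.0166). An antisense gene over it, *Gm13822*, averaged 5.14 and 7.75 FPKM, and whether the reads were counted by strand is not given in the sources used here.

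*Ifih1*, the gene of MDA5, which senses long double-stranded RNA such as poly I:C, fell from a mean of 3.09 ± 0.163 to 2.36 ± 0.121 FPKM (SD, n = 3, limma adjusted p = 0.0106). *Ddx58*, the gene of RIG-I, had means of 3.27 ± 0.141 and 3.23 ± 0.419 FPKM, with overlap between the groups (log2 fold change -0.02 ± 0.0812, SE, adjusted p = 0.887, limma). Thus the gene of the one helicase passed the test and that of the other did not, and the difference between their changes was not tested. *Oas2*, *Oasl2* and *Zbp1*, which senses Z-form nucleic acid, also fell, to means of 3.2, 4.85 and 2.07 FPKM from 4.04, 6.09 and 2.85 FPKM.

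*Ifi203*, another PYHIN gene, was at 17.6, 16.5 and 17.8 FPKM in control and at 15.5, 15.5 and 17.2 FPKM in *Myh9*-deficient libraries, with overlap (adjusted p = 0.164). *Eif2ak2* had means of 5.86 and 5.25 FPKM (adjusted p = 0.148). Near copies limit the PYHIN genes, since 30.2% of the windows of *Ifi204* are shared with *Ifi211* or *Mndal* and 10.9% of those of *Ifi203* with other genes, and *Mndal* overlaps *Ifi203*. In this role 3 calls were less firm: *Zbp1* lost its call without *Myh9*-deficient library 1 or 2 (adjusted p = 0.0628 and 0.0567, limma), *Oasl1* without control library 1 or 2 (0.0571 and 0.054), and *Oas2* without any 1 library other than *Myh9*-deficient library 3 (0.0544 to 0.121). With all libraries kept, *Zbp1* lost it without the filter on low values (0.0618). *Oas2* lost it without that filter, with median of ratios or quantile scaling, with trends in GC content and length removed, and with a replicate block (0.0534 to 0.111).

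The 4 transcription factors carry the interferon signal to the promoters. All 4 fell, where 20.6% of all genes tested fell, with a median log2 fold change of -0.30. *Irf1*, which itself activates many of the other genes, showed the largest fall. It measured 22, 23.4 and 20.8 FPKM in control and 15, 15.3 and 15.4 FPKM in *Myh9*-deficient libraries, without overlap (log2 fold change -0.50 ± 0.0472, SE, adjusted p = 0.000376, limma). *Irf9*, the DNA-binding partner of STAT2, measured 13.3, 14.4 and 12.8 FPKM in control and 9.67, 10.4 and 10.4 FPKM in *Myh9*-deficient libraries. Its mean fell from 13.5 to 10.1 FPKM, and again the groups stood apart (adjusted p = 0.00193, limma).

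*Stat2* was at 5.07, 5.03 and 4.92 FPKM in control and at 4.43, 3.87 and 4.13 FPKM in *Myh9*-deficient libraries (log2 fold change -0.22 ± 0.0547, SE, adjusted p = 0.0176, limma). *Irf7*, which amplifies interferon alpha production, was at 12.7, 11.9 and 12.5 FPKM in control and at 10.7, 10.6 and 11.6 FPKM in *Myh9*-deficient libraries (log2 fold change -0.16, adjusted p = 0.0302). Neither gene overlapped between the groups. *Irf7* lost its call without control library 1 or 3 or *Myh9*-deficient library 1 or 2 (adjusted p = 0.0822 to 0.0946, limma), and *Stat2* without control library 1 or 2 (0.0577 and 0.0538). With trends in GC content and length removed from each library, *Irf7* and *Stat2* lost it as well (log2 fold changes -0.13 and -0.15, adjusted p = 0.0811 and 0.0829, limma). *Irf7* also lost it without the filter on low values (0.0563). *Phrf1* overlaps *Irf7* on the opposite strand and *Rnf31* overlaps *Irf9* on the same strand. The summed level of the 4 genes was 51 to 54.8 FPKM in control and 39.8 to 41.5 FPKM in *Myh9*-deficient libraries.

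The 8 regulators adjust the response through ubiquitin, the ubiquitin-like protein ISG15 or ADP-ribosylation. Of the 7 tested, 4 fell (57.1%) and 0 rose, against 20.6% and 19.9% of all genes tested, with a median log2 fold change of -0.27. *Trim30a*, which restrains Toll-like receptor signalling, measured 13.9, 14.2 and 13.6 FPKM in control and 8.66, 9.43 and 9.48 FPKM in *Myh9*-deficient libraries. The 2 groups lay far apart for their spread (log2 fold change -0.55 ± 0.0443, SE, adjusted p = 0.00021, limma). *Trim25*, the ubiquitin ligase that acts on RIG-I, fell from 14.8, 13.7 and 13.5 FPKM in control to 11.8, 11.2 and 11.3 FPKM in *Myh9*-deficient libraries (adjusted p = 0.00385, limma).

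The ADP-ribosyltransferase genes *Parp14* and *Parp9* and the gene *Dtx3l*, whose product binds PARP9, lie side by side on chromosome 16. *Parp14* fell from 3.79, 3.56 and 3.51 FPKM in control to 2.64, 2.58 and 2.5 FPKM in *Myh9*-deficient libraries (log2 fold change -0.37, adjusted p = 0.00223). *Dtx3l* fell from 6.82, 6.58 and 5.94 FPKM to 4.93, 4.82 and 5.21 FPKM (log2 fold change -0.31, adjusted p = 0.0065). Neither overlapped between the groups. *Parp9* had means of 8.87 and 7.2 FPKM and just missed the threshold (adjusted p = 0.0523, limma), and it passed without *Myh9*-deficient library 3 (0.0337). *Parp9* and *Dtx3l* overlap on opposite strands.

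*Isg15* and *Usp18*, the modifier and the protease that removes it, showed no difference past the threshold. *Isg15* was at 19.6, 27.4 and 23.6 FPKM in control and at 23.2, 22.1 and 20 FPKM in *Myh9*-deficient libraries (log2 fold change -0.10 ± 0.116, SE, adjusted p = 0.542, limma), and *Usp18* had means of 6.08 and 5.77 FPKM (log2 fold change -0.05 ± 0.111, SE, adjusted p = 0.733, limma). Both spread widely in the control group, with coefficients of variation of 16.5% and 18%. *Herc6*, an E3 ligase for ISG15, was too low to be tested, with 134 to 176 reads in control and 81 to 110 reads in *Myh9*-deficient libraries.

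Effectors act on the virus or the infected cell, by blocking entry, holding virions at the membrane, depleting nucleotides or degrading RNA. They were the most mixed role. Of the 18 tested, 7 fell (38.9%) and 3 rose (16.7%), against 20.6% and 19.9% of all genes tested, with a median log2 fold change of -0.12. Their summed level overlapped between the groups, at 2008 to 2075 FPKM in control and 2013 to 2085 FPKM in *Myh9*-deficient libraries. The most abundant genes set this sum, and these moved in both directions.

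*Ifitm1*, *Lgals9* and *Isg20* were the 3 genes that rose. *Ifitm1*, which encodes a membrane protein that hinders viral fusion, was at 270, 260 and 267 FPKM in control and at 375, 351 and 361 FPKM in *Myh9*-deficient libraries (log2 fold change 0.44 ± 0.0312, SE, adjusted p = 0.000114, limma). *Lgals9*, the gene of the lectin galectin-9, was at 197, 191 and 193 FPKM in control and at 260, 259 and 260 FPKM in *Myh9*-deficient libraries (log2 fold change 0.42 ± 0.0221, SE, adjusted p = 3.73e-05, limma). In both genes the gap between the groups was many times the spread within them. *Isg20*, an exonuclease for single-stranded RNA, was at 15.1, 16.1 and 14.4 FPKM in control and at 19.1, 20.8 and 19.1 FPKM in *Myh9*-deficient libraries, and again without overlap (log2 fold change 0.35, adjusted p = 0.00271, limma).

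*Ifi27l2a*, a small membrane protein gene, had the largest fall among effectors on the scale of FPKM + 1, from 126, 113 and 117 FPKM in control to 71.5, 69.3 and 79 FPKM in *Myh9*-deficient libraries (log2 fold change -0.69 ± 0.0602, SE, adjusted p = 0.000289, limma). *Ifi44* was at 2.48, 2.86 and 2.48 FPKM in control and at 1.49, 1.19 and 1.62 FPKM in *Myh9*-deficient libraries (log2 fold change -0.57 ± 0.0907, SE, adjusted p = 0.00333, limma). By the ratio of mean FPKM, *Ifi44* fell further (0.55) than *Ifi27l2a* (0.618). *Ly6e*, a GPI-anchored protein gene that restricts coronavirus entry, fell from 429, 426 and 434 FPKM to 354, 338 and 355 FPKM (log2 fold change -0.30, adjusted p = 0.000314). None of the 3 overlapped between the groups. *Bst2*, the tether that holds budding virions, fell from 259 to 233 FPKM, and *Adar*, which edits adenosine in double-stranded RNA, from 8.77 to 7.15 FPKM. *Chrnb2*, on the opposite strand, shares 20.1% of the windows of *Adar* but averaged 0.18 and 0.247 FPKM.

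*Sp100*, a nuclear body protein gene, and *Samhd1*, which hydrolyses deoxynucleotides, also fell, from means of 12.7 and 11.3 FPKM to 11 and 10.2 FPKM, with less firm calls. *Sp100* lost its call without control library 1 or 3 or *Myh9*-deficient library 1 or 2 (adjusted p = 0.0885 to 0.104, limma), and *Samhd1* without any 1 library other than control library 3 (0.0675 to 0.125). With trends in GC content and length removed from each library, the log2 fold changes of *Samhd1* and *Sp100* were -0.03 and -0.13 (adjusted p = 0.57 and 0.116, limma).

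*Ifitm3*, the most abundant of all, was at 584, 552 and 564 FPKM in control and at 584, 551 and 575 FPKM in *Myh9*-deficient libraries (log2 fold change 0.01 ± 0.0327, SE, adjusted p = 0.871, limma). Its libraries overlapped fully, but its direction depended on the scaling: with the trends in GC content and length removed, its log2 fold change was -0.17 (adjusted p = 0.0044). The calls of *Ifitm1*, *Lgals9* and *Isg20* held under every alternative fit, though none of the 3 changed by more than 1.5-fold. *Lgals3bp*, *Ifi35* and *Rtp4* differed by less than 3% between means of 106 and 108, 25.2 and 25.2, and 11.6 and 11.5 FPKM. *Xaf1* had means of 4.2 and 3.43 FPKM (adjusted p = 0.0702, limma) and passed without control library 3 (0.0483).

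The *Ifit* genes encode proteins that bind foreign RNA ends. *Ifit1* (means 1.83 and 1.67 FPKM, adjusted p = 0.572) and *Ifit2* (5.3 and 4.58 FPKM, adjusted p = 0.123) did not pass. *Ifit3* and *Ifit3b* were too low to be tested and lay the other way. *Ifit3* had 28, 9 and 20 reads in control and 32, 37 and 35 reads in *Myh9*-deficient libraries, and *Ifit3b* had 1, 3 and 7 reads against 8, 9 and 13. Of their 50-base windows, 51.2% and 45.0% are shared with another gene, in the main with each other, so their reads may have been divided between them in a way that the table does not show. *Cmpk2* (3.99 and 4.43 FPKM, adjusted p = 0.103) and its neighbour *Rsad2*, the gene of viperin (0.603 and 0.75 FPKM, not tested), likewise did not lie below control.

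The GTPases are the Mx proteins, the guanylate-binding proteins (GBPs) and the immunity-related GTPases (IRGs), of which the last 2 families attack the vacuoles of intracellular pathogens and answer mainly to interferon gamma. Of the 9 tested, 3 fell (33.3%) and 0 rose, against 20.6% and 19.9% of all genes tested, with a median log2 fold change of -0.14. Their summed level was 83.7 to 87.6 FPKM in control and 74.2 to 75.6 FPKM in *Myh9*-deficient libraries. These ranges did not overlap.

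*Gbp5*, which promotes inflammasome assembly, fell most, from 3.77, 3.57 and 3.51 FPKM in control to 1.91, 1.76 and 2.23 FPKM in *Myh9*-deficient libraries (log2 fold change -0.64 ± 0.0746, SE, adjusted p = 0.000949, limma). *Gbp3* fell from 25.8, 26 and 23.6 FPKM to 19.1, 18.6 and 18.9 FPKM (log2 fold change -0.40 ± 0.044, SE, adjusted p = 0.000762, limma). In both the groups stood apart. *Gbp2* (means 10.1 and 9.06 FPKM, adjusted p = 0.11) and *Gbp7* (5.29 and 5.26 FPKM, adjusted p = 0.962), which lie in the same stretch of chromosome 3, did not pass.

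Among the IRGs, *Irgm2* was at 5.07, 4.67 and 4.32 FPKM in control and at 4.04, 3.69 and 3.89 FPKM in *Myh9*-deficient libraries (log2 fold change -0.22 ± 0.0641, SE, adjusted p = 0.0315, limma). This call was lost without any 1 library other than control library 3 (adjusted p = 0.0514 to 0.0926). *Igtp*, which overlaps *Irgm2* on the same strand and shares 12.3% of its windows with it, was at 20.2, 17.9 and 19.2 FPKM in control and at 18.8, 21.3 and 19.8 FPKM in *Myh9*-deficient libraries (adjusted p = 0.483). *Irgm1* was at 11, 10.8 and 10.5 FPKM in control and at 10.4, 10.7 and 10.1 FPKM in *Myh9*-deficient libraries (adjusted p = 0.365), and *Iigp1* had means of 3.69 and 3.54 FPKM (adjusted p = 0.605). Both overlapped between the groups.

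*Mx1*, whose promoter drives the Cre in the *Myh9*-deficient group, was at 1.79, 1.62 and 2.29 FPKM in control and at 1.13, 1.26 and 1.63 FPKM in *Myh9*-deficient libraries. The highest *Myh9*-deficient library just reached into the control range, and the difference did not pass (log2 fold change -0.31 ± 0.12, SE, adjusted p = 0.0821, limma). It passed with voom on the recovered reads (log2 fold change -0.49, adjusted p = 0.0339). Reads of the transgene were not looked for here. *Mx2* had 69, 74 and 63 reads in control and 38, 52 and 38 reads in *Myh9*-deficient libraries and was not tested.

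The 3 libraries of a group were alike in this. The median deviation of the 50 genes from the control mean of log2(FPKM + 1) was 0.01, -0.01 and -0.02 in the control libraries and was -0.20, -0.22 and -0.20 in those of the *Myh9*-deficient group. No single library of the *Myh9*-deficient group set the median. For effectors and GTPases the medians of the *Myh9*-deficient libraries were nearer to those of control than for the other roles, but differences between roles were not tested.

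**Figure D3:**
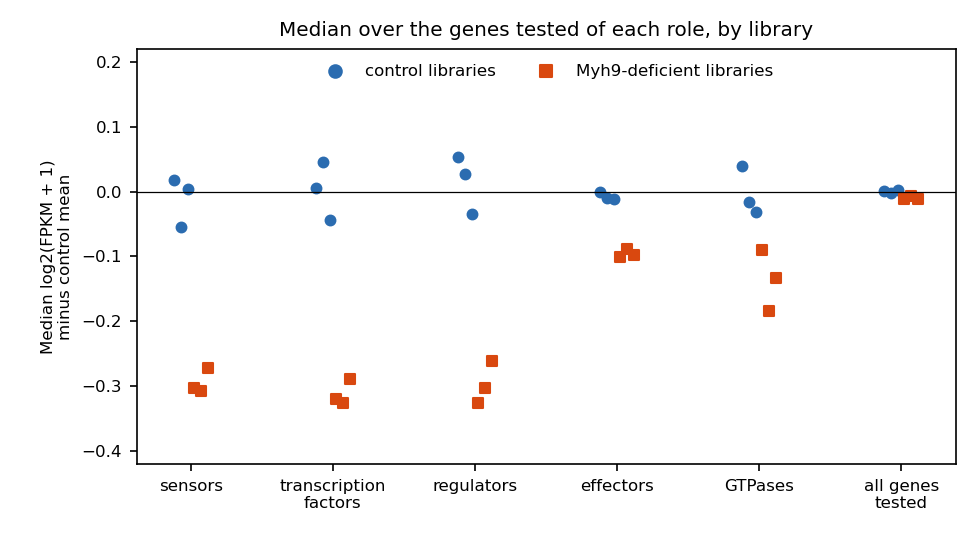
Median over the genes tested in each role of log2(FPKM + 1) minus the control mean, 1 point for each library, with circles for control and squares for *Myh9*-deficient libraries. All squares lie below all circles in each of the 5 roles, furthest for sensors, transcription factors and regulators, while over all genes tested both groups lie within 0.02 of 0.

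Other genes of the pathway were taken from lists of 131 genes outside the set, of which 130 are in the table and 82 were tested. Of the 82, 6 rose and 41 fell, with a median log2 fold change of -0.19. Of 21 genes of the ligands, 19 are listed at 0 in all 6 libraries. *Ifng* had 1 to 3 reads in control and 2 to 7 reads in *Myh9*-deficient libraries, and *Ifnz* 0 to 4 reads, so no change in the ligands could be measured. A 0 in the table may come from the counting as well as from a lack of transcripts. *Trex1*, which many cell types express, and the megakaryocyte gene *Gp1bb* are also listed at 0 in all 6 libraries, and the interferon alpha genes are near copies of each other.

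The receptor chains were present, and all 5 that were tested fell, where 20.6% of all genes tested fell. *Ifnar2*, a chain of the type I receptor, fell from a mean of 32.3 to 25.6 FPKM (log2 fold change -0.32 ± 0.0306, SE, adjusted p = 0.000407, limma). Its partner *Ifnar1* fell from a mean of 9.41 to 7.61 FPKM, and *Ifngr1*, a chain of the interferon gamma receptor, from 102 to 86.6 FPKM. The falls of *Ifngr2* and *Il10rb* were less firm: *Ifngr2* kept its call only without control library 3 when single libraries were left out (adjusted p up to 0.0993, limma), and *Il10rb* lost it without control library 1 or 3 or *Myh9*-deficient library 2 or 3 (0.0597 to 0.0735). *Ifnlr1*, the interferon lambda receptor chain, was under 0.1 FPKM in every library.

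Below the receptors, the kinase gene *Tyk2* fell from 9.99 to 7.84 FPKM and *Jak2* from 9.97 to 8.65 FPKM, while *Jak1* (17.7 and 17 FPKM) and *Stat3* (12.6 and 11.4 FPKM) did not pass. The call of *Jak2* was lost without any 1 library other than control library 3 (adjusted p = 0.0638 to 0.0972, limma). Of 9 tested genes that lead from poly I:C or DNA to interferon, 4 fell (*Mb21d1*, *Ikbke*, *Mavs* and *Tmem173*) and 1 rose (*Irf3*, from 31.3 to 33.7 FPKM). These shares were 44.4% and 11.1%, against 20.6% and 19.9% of all genes tested. The call of *Irf3* was lost without any 1 library other than *Myh9*-deficient library 3 (adjusted p = 0.0683 to 0.106, limma). *Tlr3* was under 0.1 FPKM in every library.

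Among 9 inhibitors that restrain interferon or inflammatory signalling, 5 fell (55.6%) and 1 rose (11.1%), against 20.6% and 19.9% of all genes tested. *Socs1*, which binds and inhibits JAK kinases, rose from 2.37, 2.28 and 1.92 FPKM in control to 3.45, 3.15 and 3.44 FPKM in *Myh9*-deficient libraries (log2 fold change 0.45 ± 0.0747, SE, adjusted p = 0.00399, limma). *Socs3*, of the same family, fell from 5.97, 7.16 and 7.05 FPKM to 3.77, 3.07 and 3.74 FPKM (log2 fold change -0.77 ± 0.0898, SE, adjusted p = 0.00094, limma). So these 2 related genes moved in opposite directions, each without overlap between the groups. *Tnfaip3*, the ubiquitin-editing enzyme A20, fell from 6.34, 6.18 and 6.15 FPKM to 2.99, 2.85 and 2.95 FPKM (log2 fold change -0.88, adjusted p = 3.21e-05). A20 is better known as a target of NF-kappaB than of interferon.

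Of 81 other interferon stimulated genes, 55 were tested, 4 of which rose (7.27%) and 25 fell (45.5%), against 19.9% and 20.6% of all genes tested. The largest falls went beyond any of the 50 genes above. *Ifi209*, a PYHIN gene of the chromosome 1 cluster, was at 31.7, 29.9 and 29.8 FPKM in control and at 8.72, 8.02 and 8.57 FPKM in *Myh9*-deficient libraries (log2 fold change -1.74 ± 0.0436, SE, adjusted p = 3.53e-06, limma). *Ly6c2*, the gene of a surface antigen abundant on monocytes, fell from 343, 381 and 360 FPKM to 122, 132 and 140 FPKM (log2 fold change -1.45 ± 0.0596, SE, adjusted p = 1.34e-05, limma). These falls were many times the spread within groups. *Ifi211*, also of the PYHIN family, fell from 6.37, 5.09 and 5.93 FPKM to 2.54, 2.92 and 2.59 FPKM (log2 fold change -0.88, adjusted p = 0.000406, limma).

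*Serpina3g*, a protease inhibitor gene, rose from 94.4, 92.6 and 94 FPKM in control to 148, 148 and 155 FPKM in *Myh9*-deficient libraries (log2 fold change 0.68 ± 0.0279, SE, adjusted p = 1.34e-05, limma). *Ifi47*, an IRG gene, rose less, from 55.7, 56.8 and 57.6 FPKM to 66.3, 62.8 and 63.7 FPKM (log2 fold change 0.18, adjusted p = 0.00453, limma). *Oas1c* rose from 2.45, 2.6 and 2.47 FPKM to 3.24, 3.08 and 3.06 FPKM (log2 fold change 0.24, adjusted p = 0.0135), and no library of either gene crossed into the other group. *Pnpt1*, a mitochondrial RNA-processing enzyme gene, rose from 15.4, 15.5 and 14.5 FPKM to 16.9, 16.3 and 17.7 FPKM (log2 fold change 0.16, adjusted p = 0.0302). *Pnpt1* kept its call only without *Myh9*-deficient library 2 when single libraries were left out (adjusted p up to 0.087, limma). *Oas1c* thus rose where *Oas1a*, *Oas2* and *Oas3* fell. *Ly6a*, the gene of Sca1, was at 96.7, 93.2 and 96.2 FPKM in control and at 92.3, 85.4 and 90.8 FPKM in *Myh9*-deficient libraries. Its groups did not overlap, but the difference did not pass (log2 fold change -0.09, adjusted p = 0.0833, limma). It passed with quantile normalization (-0.12, adjusted p = 0.0234) and with trends in GC content and length removed (-0.20, 0.00328). Cells were sorted on Sca1 protein, and the part of the gate in this value was not tested.

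**Figure D4:**
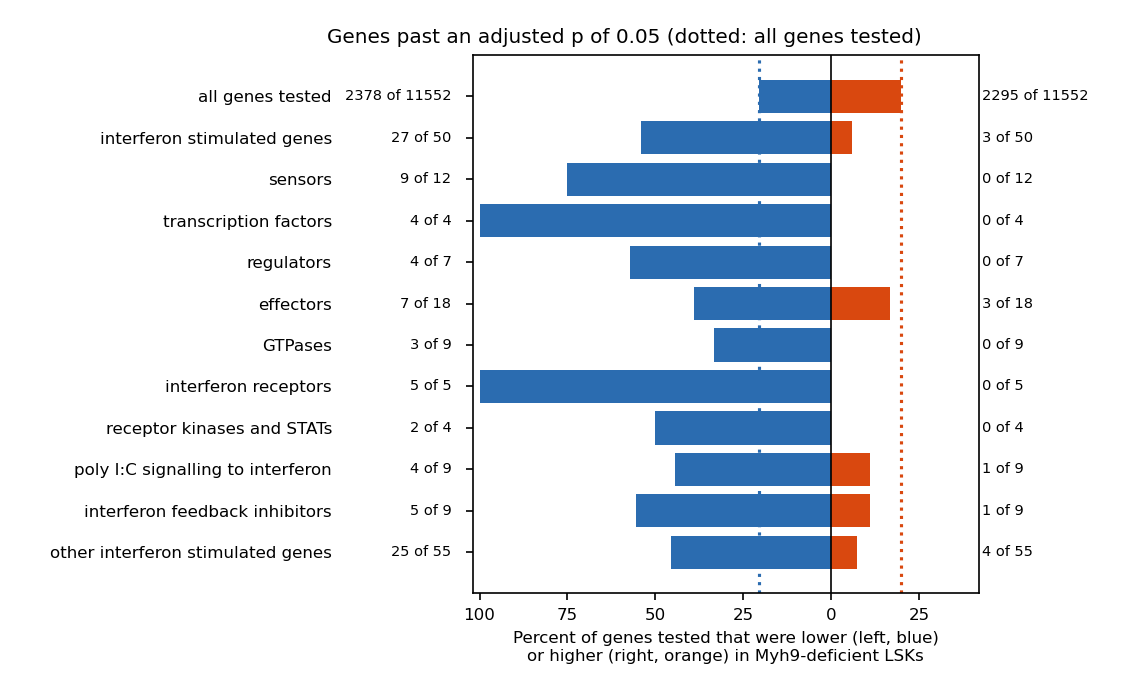
Share of the genes tested in each list that fell (blue, left) or rose (orange, right) with an adjusted p under 0.05, with the numbers beside the bars and dotted lines at the shares over all 11552 genes tested (20.6% and 19.9%). In each list of the pathway the share that fell is above its dotted line and the share that rose is below its own.

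Many markers of committed cells moved as well. Of the 7 LSK markers tested, 3 were called, a share near the 40.5% of all genes tested that were called in either direction. *Flt3* (19.8 to 30.1 FPKM) and *Hlf* (3.73 to 5.16 FPKM) rose and *Kit* (23.9 to 21.5 FPKM) fell, while the summed level of all 8 LSK markers overlapped between the groups. In bulk libraries, fewer cells of a type and less RNA per cell cannot be told apart. The summed level of 7 monocyte and macrophage markers was 62.3 to 67.5 FPKM in control and 26.9 to 28.7 FPKM in *Myh9*-deficient libraries, with *Csf1r*, *Cd14*, *Adgre1* and *Ccr2* lower, *C1qa* and *C1qb* higher and *Mrc1* at most 0.0908 FPKM on average in either group. The summed level of 7 neutrophil markers was 8505 to 8588 FPKM in control and 4443 to 4526 FPKM in *Myh9*-deficient libraries, with 5 lower and 1 higher. Nearly all of this sum was *Elane*, *Mpo* and *Prtn3* (3096, 3331 and 2008 FPKM in control), genes of primary granules that early myeloid progenitors also express. Of the genes of later neutrophils, *Ltf* (5.96 to 3.39 FPKM) and *Ngp* (33 to 25.5 FPKM) fell. *S100a8* had means of 67.8 and 67.3 FPKM, and *Retnlg* rose from 8.94 to 30.1 FPKM. All 7 erythroid markers (419 to 424 against 752 to 777 FPKM in sum), all 4 of the 6 megakaryocyte markers that were tested (63.4 to 68.1 against 136 to 142 FPKM) and all 6 mast cell and basophil markers (81.1 to 94.2 against 151 to 158 FPKM) were higher in *Myh9*-deficient libraries. Markers of plasmacytoid dendritic cells, the main source of interferon alpha, overlapped in sum (8.31 to 10.3 against 8.81 to 12.4 FPKM), and their defining markers *Siglech*, *Ccr9*, *Pacsin1* and *Klk1* averaged at most 0.292 FPKM in either group. The T and NK marker sum was 352 to 363 FPKM against 290 to 295 FPKM, nearly all of it *Nkg7*, which fell, while *Trbc2* rose from 1.22 to 6.13 FPKM and *Klrd1* from 0.919 to 2.68 FPKM, and *Cd3e*, *Cd3g*, *Cd3d* and *Gzma*, too low to be tested, were higher in all *Myh9*-deficient than in all control libraries (*Cd3e* 0 in control). B and plasma cell markers overlapped in sum, but all 5 that were tested moved: *Jchain* (30.4 to 64 FPKM), *Mzb1* (4.58 to 8.99 FPKM) and *Cd79a* (0.743 to 1.52 FPKM) rose, and *Ighm* (100 to 59 FPKM) and *Sdc1* (3.31 to 2.26 FPKM) fell. The sums of the monocyte and macrophage, the neutrophil, and the T and NK markers moved in the same direction as the interferon stimulated genes, and their part in the result was not tested.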

How the data were processed

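RNA was sequenced from 3 control and 3 *Myh9*-deficient sets of LSK cells. The authors deposited FPKM for each gene and library with gene lengths. The submitters' processing notes name HISAT2 2.0.5 and the mm10 build, while the counting program, its handling of reads with several matches and its strand setting are not given in the sources used here. Multiplied by length, 100% of values were whole multiples of their library's step (within 0.02 reads), which gave the reads. Intervals from reads would cover counting error only.

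Genes with a mean of 1 FPKM or more were tested on log2(FPKM + 1) with limma 3.58.1 (lmFit, and eBayes with its trend option) in R 4.3.3, and the two-sided p-values of 11552 genes were adjusted by the Benjamini-Hochberg method, after a test of the script on simulated data. The members, lists and tests were chosen with earlier results of these data known. Described with each library's value are *Mx1* and, in each role, up to 3 members with the highest control level, up to 3 called higher and up to 3 called lower with the largest change, and in the pathway *Ly6a* and up to 5 in each direction over all lists. Other genes are given by fewer values and were named after these were seen. 1 gene of the pathway lists is not reported here. Alternatives were a pseudocount of 0.1, no filter, a mean of at least 5 FPKM, median of ratios and quantile scaling, no trend, voom on recovered reads, removal of GC and length trends, a replicate block, each library left out, and a 1.5-fold limit. Shared windows of 50 bases came from GENCODE M21 transcripts, in which 54 of the 55 genes have the table's coordinates, and promoters from RefSeq (GRCm38.p6). Python 3.11.15 with pandas 2.3.3 was used for the rest.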

Additional observations from a re-analysis of the deposited data

How the results depend on the processing

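The limits lie in 3 libraries a group and small changes. Of the 30 interferon stimulated genes called, 22 passed in each of the 15 alternative fits that tested them, 8 lost the call in at least 1 (*Zbp1*, *Oas2*, *Oasl1*, *Irf7*, *Stat2*, *Samhd1*, *Sp100* and *Irgm2*), and all 30 kept their sign. The number that fell, 27, was 18 with a mean of at least 5 FPKM (fewer genes tested) and 30 with voom, and 20 to 26 with each library left out, while the number that rose was 3 in each of these. With more than 1.5-fold on the scale of FPKM + 1 as well, 3 fell and 0 rose, and in the wider pathway 8 fell and 1 rose instead of 41 and 6. The wider pathway counts were 29 to 35 and 4 to 6 with each library left out. The median log2 fold change, -0.21, was -0.24 with a pseudocount of 0.1, -0.15 with a mean of at least 5 FPKM, and -0.22 to -0.18 with each library left out. With GC content and length trends removed, *Ifitm3* turned from 0.01 to -0.17 (adjusted p = 0.0044, limma) and *Ifitm2* from 0.01 to -0.16 (0.0203), and the cause was not tested. Of all calls, 49.1% were higher, and 46.4% to 52.1% with the other scalings.

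Replicate numbers did not pair the samples (same-number correlations of deviations -0.00459, -0.0112 and -0.0262). With the replicate block, 26 members fell and 3 rose, 25 of the 26 being among the 27, and in the wider pathway 38 fell and 4 rose. *Mx1* passed with the block (adjusted p = 0.0414, limma).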
